A study of Mus musculus with 7 samples.

Results

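The nuclear genes of the mitochondrial respiratory chain were taken as the protein-coding RefSeq genes of mm10 on the chromosomes whose symbols begin with Nduf followed by a, b, c, s or v, with Uqcr, with Cox4 to Cox8 or with Atp5, plus Sdha, Sdhb, Sdhc and Sdhd. The rule found 96 genes among 21887 protein-coding genes. A gene was counted as called in a library when a peak of that library lay within 1 kb of either end of the gene. The rule for the genes used no measured value, though it was chosen with earlier results of these data known. CUTAC, a form of CUT&Tag tuned to cut accessible DNA beside a histone mark, had been run on sorted bone marrow cMoPs (common monocyte progenitors) of mice. The H3K4me2 libraries were DE replicates 1 and 2 and WT replicates 1 and 2, all of batch 2, where DE and WT are variants of an enhancer at -165 kb of Zeb2. The labels do not say what DE changes, nor the age or strain of the animals, nor whether the replicates came from separate animals, so a p-value below measures only the spread between these libraries. A single WT library of H3K4me3, of batch 1, was also used, so the mark and the batch cannot be told apart there.

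Complexes I to IV of the inner mitochondrial membrane pass electrons from NADH and succinate to oxygen. Complexes I, III and IV pump protons, and complex V, the ATP synthase, makes ATP from the proton gradient. A few subunits are encoded by the mitochondrial genome, and all others by nuclear genes such as these, whose promoters are known for binding sites of NRF1 and of the ETS factor GABP. H3K4me2 marks active promoters and enhancers, and H3K4me3 marks mainly the starts of active genes. In bone marrow progenitors, respiration is known to rise as cells leave the stem cell state.

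The lists held 21968 and 17079 peaks in DE and 32354 and 28152 peaks in WT, and 6425 peaks for H3K4me3. Their lowest −log10 q lay between 1 and 1.02, and read depths are unknown. All 6 markers taken for the monocyte lineage and its progenitors (Csf1r, Irf8, Klf4, Ly6c2, Mpo and Kit) were called in every H3K4me2 list. Those lists called 40.2% to 49.1% of all genes. All of the 6 but Kit had an H3K4me3 call. Of 12 markers of other lineages, 1 was called in DE replicate 1 (Cd79a), none in DE replicate 2, none in WT replicate 1 and 1 in WT replicate 2 (Epor).

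The promoters below show the range of the family, from a strongly called gene that shares its start region to genes without a call. Each runs 5′ to 3′ on the strand of its gene, from 250 bases before to 50 bases after the start, and comes from RefSeq on GRCm38.p6, the mm10 build. Capitals mark matches on either strand to 5 motifs. These were the palindromic NRF1 consensus, whose matches can be read in the Sdhd and Cox6a1 lines, the ETS core CCGGAAG, the YY1 core AAGATGG, the TATA box as TATAAA, and the CCAAT box by those letters. RefSeq promoter rows were matched for 78 of the 96 genes. Those without a row included Ndufs1, Ndufa2, Ndufa4l2, Ndufb4c, Ndufb9, Ndufaf6, Sdhc, Uqcrb, Uqcrc2, Uqcrq, Cox4i1, Cox4i2, Cox6a2, Cox6c, Cox8c, Atp5a1 and Atp5mpl.

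Sdhd encodes a membrane anchor of complex II and had a high place in all 5 lists (chr9:50603800-50604099, minus strand). Its NRF1 match begins at -79 and its ETS match at -46, counted from the start.
Sdhd: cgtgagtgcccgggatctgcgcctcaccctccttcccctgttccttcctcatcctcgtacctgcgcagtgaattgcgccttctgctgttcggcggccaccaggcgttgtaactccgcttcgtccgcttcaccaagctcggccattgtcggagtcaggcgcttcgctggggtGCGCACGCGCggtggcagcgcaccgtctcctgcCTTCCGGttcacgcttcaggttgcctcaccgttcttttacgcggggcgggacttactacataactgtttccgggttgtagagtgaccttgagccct
Atp5j encodes a subunit of the stalk of ATP synthase, and its start lies back to back with that of Gabpa, which encodes the DNA-binding subunit of GABP (chr16:84834927-84835226, minus strand). Of the starts of Atp5j, the one nearest to its peak is shown, with a YY1 match at -88 and an ETS match at -61.
Atp5j: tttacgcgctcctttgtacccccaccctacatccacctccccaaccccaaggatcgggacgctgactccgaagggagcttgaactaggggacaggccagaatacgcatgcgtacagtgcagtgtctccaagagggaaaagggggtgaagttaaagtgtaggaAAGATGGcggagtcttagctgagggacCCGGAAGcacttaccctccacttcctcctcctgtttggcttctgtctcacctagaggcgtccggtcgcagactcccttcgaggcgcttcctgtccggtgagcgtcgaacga
Cox6a1 and Cox8a encode complex IV subunits of most tissues (chr5:115348909-115349208 and chr19:7217567-7217866, both minus strand). Cox6a1 holds NRF1 matches at -162 and -117, a CCAAT match at -74 and an ETS match at -16, and Cox8a holds a CCAAT match at -171 and ETS matches at -5 and 32.
Cox6a1: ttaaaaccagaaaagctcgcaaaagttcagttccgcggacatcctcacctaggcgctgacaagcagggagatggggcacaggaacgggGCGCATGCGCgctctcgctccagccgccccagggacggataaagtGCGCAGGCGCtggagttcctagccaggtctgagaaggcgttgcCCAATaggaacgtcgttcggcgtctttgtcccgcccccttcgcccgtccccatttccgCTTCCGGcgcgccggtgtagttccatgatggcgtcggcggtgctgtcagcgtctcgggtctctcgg
Cox8a: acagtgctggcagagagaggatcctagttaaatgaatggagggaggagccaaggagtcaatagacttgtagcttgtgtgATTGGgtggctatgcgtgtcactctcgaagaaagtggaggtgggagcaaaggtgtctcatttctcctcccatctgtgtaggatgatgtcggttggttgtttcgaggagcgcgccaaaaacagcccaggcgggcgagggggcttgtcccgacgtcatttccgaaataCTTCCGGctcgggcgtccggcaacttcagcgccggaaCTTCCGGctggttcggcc
Cox8b encodes the heart and muscle form of the same subunit as Cox8a and had no call (chr7:140900397-140900696, minus strand). Its window holds 2 CpG dinucleotides, against 19 in that of Cox8a, and a TATA match at 4.
Cox8b: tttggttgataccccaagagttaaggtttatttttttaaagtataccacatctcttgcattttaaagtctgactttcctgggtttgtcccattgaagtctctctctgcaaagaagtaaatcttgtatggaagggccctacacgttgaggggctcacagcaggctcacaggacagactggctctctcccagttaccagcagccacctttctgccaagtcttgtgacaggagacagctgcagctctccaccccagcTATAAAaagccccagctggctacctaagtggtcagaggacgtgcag
Cox7b is a complex IV subunit of most tissues that also had no call (chrX:106015450-106015749, plus strand). Its window holds 5 CpG dinucleotides and CCAAT matches at -233 and 6.
Cox7b: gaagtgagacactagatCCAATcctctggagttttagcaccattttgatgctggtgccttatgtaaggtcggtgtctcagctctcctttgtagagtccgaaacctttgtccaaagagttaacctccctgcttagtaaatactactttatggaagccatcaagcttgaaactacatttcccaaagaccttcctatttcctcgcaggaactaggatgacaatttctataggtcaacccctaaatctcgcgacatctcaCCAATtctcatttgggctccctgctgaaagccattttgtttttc

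Most respiratory chain genes carried an H3K4me2 call in both genotypes. In DE, 80 and 76 of the 96 genes were called, or 83.3% and 79.2%, beside 44.8% and 40.2% of all protein-coding genes. In WT, 81 and 84 were called, or 84.4% and 87.5%, beside 48.1% and 49.1% of all genes. All 4 H3K4me2 lists called 71 of the genes (74%), against 37.6% of all genes, and no list called 10 of them (10.4%), against 47.6% of all genes. The H3K4me3 list called 55 (57.3%), against 20.8% of all genes.

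**Figure D1:**
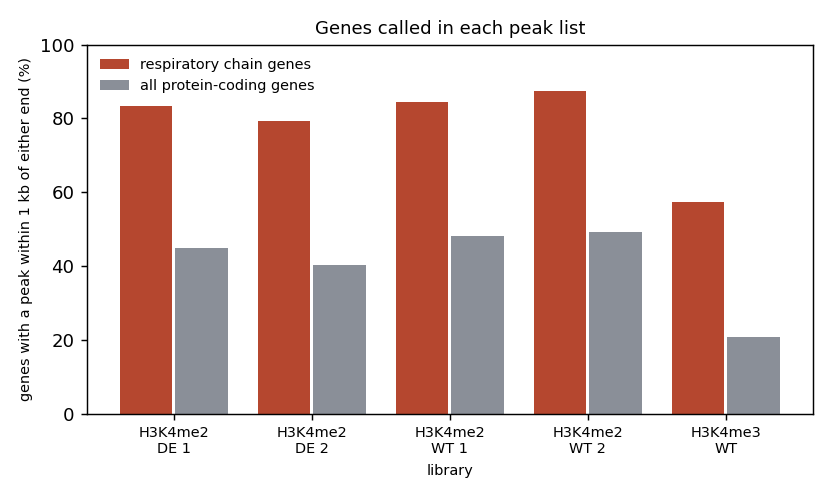
Percent of genes with a peak within 1 kb of either end in each library, for the 96 respiratory chain genes and for all 21887 protein-coding genes. The respiratory chain bars lie between 79.2% and 87.5% for H3K4me2 and at 57.3% for H3K4me3, above the bars of all genes in each library.

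The H3K4me2 peaks of these genes had median places near those over all called genes, and in the H3K4me3 list their median place was higher. Place in a list is given as a percentage counted from the strongest peak by −log10 p, and a fold is the authors' ratio of pileup over local background, of the strongest peak unless a region is named. The strongest peak of a called respiratory chain gene had a median place of 31.2% and 31.8% in DE and 19.2% and 22.8% in WT. Over all called genes the medians were 29.6% and 33.4% in DE and 23.4% and 24.5% in WT. In the H3K4me3 list the respiratory chain median was 31.6%, against 41.5% over all called genes. Median folds of the members were 5.57 and 5.17 in DE and 8.13 and 8.24 in WT, against 6.14 and 5.59 in DE and 7.77 and 8.38 in WT over all called genes. Places and folds describe a peak within its own list. Values from lists of different lengths cannot show whether a mark changed between genotypes.

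**Figure D2:**
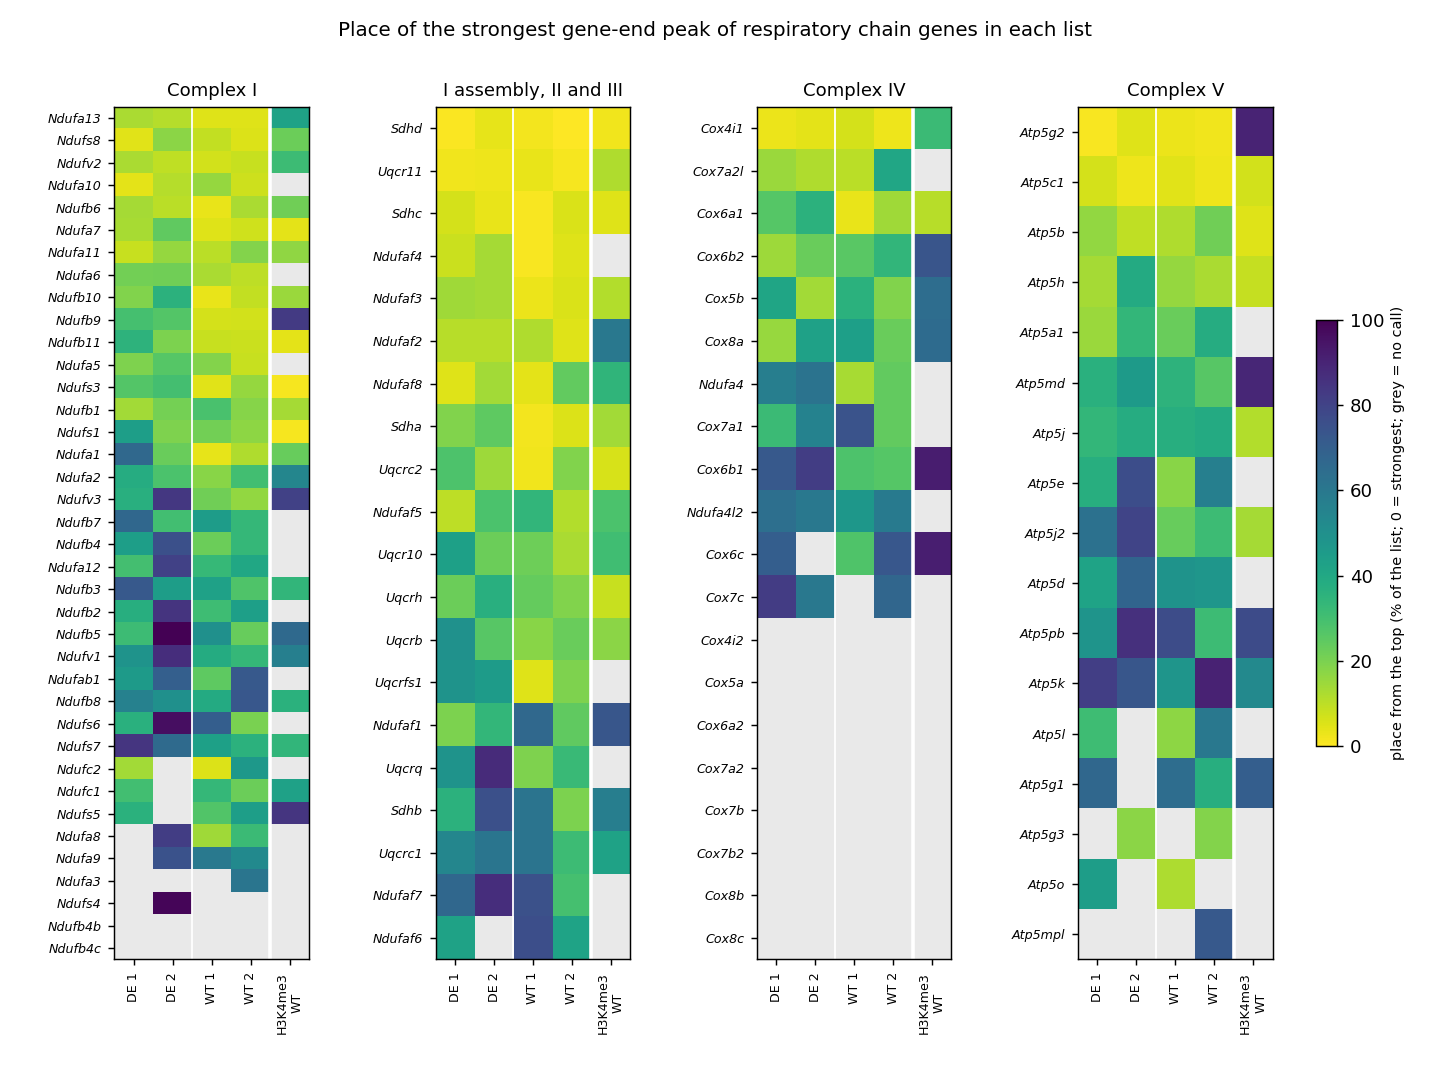
Place of the strongest peak of the respiratory chain genes in each list, from yellow (0%, strongest) to dark violet (100%), with grey for no call; columns run from DE to WT H3K4me2 libraries and then H3K4me3 in WT. Complex II and III rows are filled throughout for H3K4me2, and the grey rows collect in complex IV.

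Complex I takes electrons from NADH. All 7 nuclear core subunits, which as a set hold the flavin and iron-sulfur clusters, were called in all 4 H3K4me2 lists and in the H3K4me3 list. Ndufs3, one of these, had folds of 8.01 and 7.29 in DE, of 16.3 and 14 in WT and of 16.3 for H3K4me3, where its place of 1.29% was the highest of any member. Ndufs1, which holds iron-sulfur clusters, followed there at 1.32%, with a peak just outside the gene (chr1:63176987-63177181). Its H3K4me3 peak over the gene end itself had a place of 4.9%. All peaks of Ndufs3 were also within 1 kb of an end of Kbtbd4, and all peaks of Ndufs1 within 1 kb of an end of Eef1b2.

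Of the 32 accessory subunits of complex I, 26 and 26 were called in DE, 28 and 29 in WT and 16 for H3K4me3. All 4 lists called 23 of them. Ndufa13, also known as Grim19, had a region just inside the gene (chr8:69901471-69902112), with folds of 4.75 and 4.36 in DE, 11.1 and 14.2 in WT and 3.86 for H3K4me3. A second region upstream (chr8:69902550-69903485) had folds of 6.1 and 7.72 in DE, 14.3 and 9.16 in WT and 5.76 for H3K4me3, and both were also within 1 kb of an end of Tssk6. Both accessory genes without a call, Ndufb4b and Ndufb4c, are copies named after Ndufb4, and Ndufb4 itself was called in all 4 lists. How reads shared by such copies were handled is not stated in the labels. Among the 8 assembly factors of complex I, 8 and 7 were called in DE and 8 and 8 in WT. Ndufaf4 had folds of 6.49 and 5.48 in DE and 16.9 and 9.4 in WT with no H3K4me3 call. Ndufaf3 had folds at its start (chr9:108567271-108567753) of 6.87 and 6.04 in DE, 14.8 and 13.5 in WT and 6.71 for H3K4me3.

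Complex II links the citric acid cycle to the chain, and all 4 of its subunit genes were called in all 5 lists. Sdhd had folds of 25.1 and 9.76 in DE, 21 and 39 in WT and 14.7 for H3K4me3. Its places were 0.483% and 3.78% in DE, 1.72% and 0.27% in WT and 2.32% for H3K4me3. Those in DE replicate 1 and WT replicate 2 were the highest places of any member in their lists, so the order of the libraries crossed the genotypes. Sdhc, the other membrane anchor, had folds of 15.4 and 16 in DE, 23.8 and 22.9 in WT and 14.3 for H3K4me3. Sdhb, the iron-sulfur subunit, was lower, with folds of 4.09 and 2.75 in DE, 3.92 and 6.61 in WT and 5.32 for H3K4me3.

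Complex III, the cytochrome bc1 complex, had all 8 of its matched genes called in all 4 H3K4me2 lists and 6 of 8 in the H3K4me3 list. Uqcr11, its smallest subunit, had folds of 18 and 12.3 in DE, 17.6 and 28.9 in WT and 8.56 for H3K4me3. Uqcrc2, a core protein, had folds of 5.54 and 6.31 in DE, 14.4 and 8.1 in WT and 7.66 for H3K4me3. The genes without H3K4me3 were Uqcrfs1, the Rieske iron-sulfur protein, and Uqcrq.

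Complex IV, cytochrome c oxidase, had the lowest share of the complexes called by gene ends in each H3K4me2 list. It was 60% and 55% of 20 genes in DE and 55% and 60% in WT. Of all genes, 44.8% and 40.2% were called in DE and 48.1% and 49.1% in WT, so complex IV lay above them. The 20 include 8 tissue isoforms, and also Cox5a and Cox7a2, which were called at their starts only. Of 12 subunits of most tissues, 9 and 8 were called in DE, 8 and 9 in WT and 6 for H3K4me3, and 7 were called in all 4 lists. Cox4i1, the subunit 4 of most tissues, had folds of 13.7 and 11.2 in DE, 13.3 and 19.6 in WT and 6.64 for H3K4me3. Cox6a1 had folds of 4.79 and 4.12 in DE, 14.4 and 7.44 in WT and 7.54 for H3K4me3. Cox8a had folds of 8.82 and 4.02 in DE, 5.76 and 8.44 in WT and 5.04 for H3K4me3.

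Of the 8 tissue isoforms, 3 were called in all 4 lists (37.5%, against 37.6% of all genes). The other 5 were called in none, a pattern of 47.6% of all genes. The genes without a call were Cox6a2 and Cox8b of heart and muscle, Cox4i2 of lung, Cox7b2 and Cox8c of testis. Cox7a1, a heart and muscle form, was called with folds of 6.45 and 4.86 in DE and 4.61 and 11.1 in WT. Ndufa4l2, a hypoxia-induced relative of Ndufa4, had folds of 4.5 and 4.64 in DE and 5.12 and 6.28 in WT in the region called in all 4 lists, and all its peaks were also within 1 kb of an end of Stac3. Cox6b2, the testis form of Cox6b1, had folds at its start of 11.3 and 8.85 in DE, 7.93 and 9.9 in WT and 5.52 for H3K4me3. All its peaks were also within 1 kb of an end of Fam71e2. Cox6b1, the form of most tissues, had folds of 4.23 and 3.73 in DE, 8.13 and 10.6 in WT and 3.83 for H3K4me3.

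The other genes without a call were Cox5a, Cox7a2 and Cox7b, all of most tissues. For Cox5a and Cox7a2 the transcription start in the RefSeq promoter table lies inside the gene bounds, at chr9:57521232 and chr9:79759853, and both were called in all 4 H3K4me2 lists at that start. Cox5a had folds of 5.71 and 7.81 in DE, 13.6 and 10.8 in WT and 4.66 for H3K4me3 there. Cox7a2 had folds of 5.17 and 3.64 in DE and 9.98 and 6.34 in WT, with no H3K4me3 call. Atp5g3, called in DE replicate 2 and WT replicate 2 by its gene ends, was likewise called in all 4 lists at its start, with folds of 7.34 and 6.53 in DE and 9.21 and 9.16 in WT. Counted by start alone, 63 of 78 genes (80.8%) were called in all 4 lists, against 40.3% of 17492 genes, and 4 in none (5.13%, against 45%). Those were Cox7b, Cox7b2, Cox8b and Ndufb4b. The nearest H3K4me2 peaks to Cox7b, on chromosome X, were 4081 and 4609 bp from an end in DE and 4603 and 3837 bp in WT.

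Complex V had all 5 genes of the F1 head, the catalytic part, called in all 4 lists, and 2 of 5 (Atp5c1 and Atp5b) in the H3K4me3 list. Atp5c1, the rotating gamma subunit, had folds of 13.8 and 15.1 in DE, 16.3 and 24.6 in WT and 11.8 for H3K4me3. Atp5b, the catalytic beta subunit, had folds at its start of 8.4 and 10.9 in DE, 9.6 and 9.97 in WT and 10.7 for H3K4me3. Of the 12 genes of the stalk and membrane part, 10 and 8 were called in DE, 10 and 11 in WT and 8 for H3K4me3. Atp5g2, a gene of the c ring, had folds of 10.6 and 6.41 in DE, 16.4 and 13.3 in WT and 2.88 for H3K4me3.

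**Figure D3:**
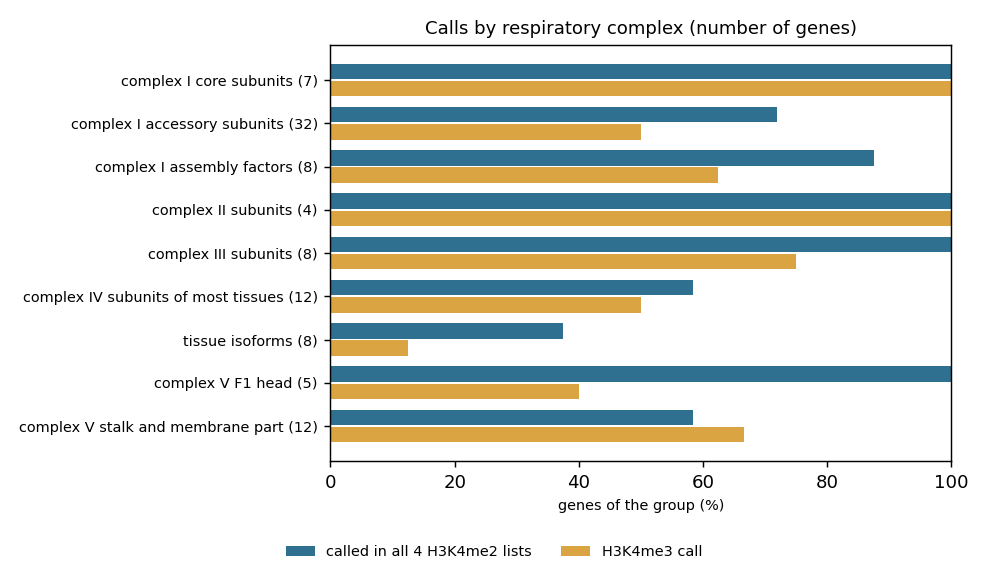
Percent of the genes of each group called in all 4 H3K4me2 lists and in the H3K4me3 list, with the number of genes in parentheses. Complex I core and complex II bars reach 100% for both marks, and the tissue isoforms have the lowest bars, with 3 of 8 genes and 1 of 8 genes. Of all protein-coding genes, which are not drawn, 37.6% were called in all 4 H3K4me2 lists and 20.8% in the H3K4me3 list.

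The comparison of DE with WT asks whether the enhancer variant moves these marks. DE libraries called 78 ± 2.83 respiratory chain genes and WT libraries 82.5 ± 2.12 (SD, n = 2 each). The difference of -4.5 had p = 0.333 by an exact two-sided permutation test, also after Benjamini-Hochberg adjustment over 2 tests, and 0.333 is the smallest p that 2 against 2 libraries allow. Both WT counts were above both DE counts, but with every H3K4me2 list limited to its 17079 strongest peaks the counts were 77 and 76 in DE and 71 and 77 in WT, a difference of 2.5. Merged regions at the gene ends numbered 94 ± 9.9 in DE and 107.5 ± 4.95 in WT (SD, n = 2 each) of 125, a difference of -13.5 with p = 0.333 by the same exact test. Per library the regions were 101 and 87 in DE (80.8% and 69.6%) and 104 and 111 in WT (83.2% and 88.8%). Among all 16074 gene-end regions, 70.9% and 60% were called in DE and 79.3% and 83.1% in WT.

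No respiratory chain gene was called in both DE and neither WT list, a pattern of 0.224% of all genes, and none in both WT and neither DE list, a pattern of 3.07% of all genes. Of the 80 genes called in both WT lists, 71 (88.8%) were called in both DE lists, against 81.9% of all genes called in both WT lists. The other 9 each missed a single DE list. In DE replicate 2, the shortest list, 7 were missed (8.75%, against 9.4% of all genes called in both WT lists). They were Ndufc1, Ndufc2, Ndufs5, Ndufaf6, Cox6c, Atp5g1 and Atp5l. In DE replicate 1, 2 were missed (2.5%, against 2.04% of the same genes), namely Ndufa8 and Ndufa9.

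The remaining partial calls followed no common pattern. Ndufa3 and Atp5mpl were called in WT replicate 2 alone, at folds of 4.25 and 3.31. Ndufs4, an accessory subunit whose loss causes Leigh syndrome in humans, was called in DE replicate 2 alone, at a fold of 3.4 and a place of 98.7%. Cox7c had folds of 3.99 and 4.45 in DE and 4.05 in WT replicate 2, with no call in WT replicate 1. Atp5o, of the stalk, had a fold of 5.34 in DE replicate 1 and 11.5 in WT replicate 1 and no call in the other libraries, so its calls followed no genotype.

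At the level of regions, 4 of 97 called in both WT lists were in neither DE list (4.12%, against 11.7% of all gene-end regions), and 0 of 83 called in both DE lists were in neither WT list (against 1.79%). The 4 lay beside Ndufa4l2 (chr10:127509080-127509189, WT folds 6.09 and 6.28), Atp5b (chr10:128091087-128091240, WT folds 11.6 and 10.1), Uqcrq (chr11:53430311-53430440, WT folds 5.61 and 6.49) and Atp5l (chr9:44920933-44921034, WT folds 6.16 and 5.99). Those of Ndufa4l2, Atp5b and Uqcrq were also within 1 kb of an end of Stac3, Baz2a and Gdf9, and that of Atp5b was called for H3K4me3. Each of these 4 genes had another region called in at least 1 DE list.

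H3K4me3 calls lay within the H3K4me2 calls. Of the 71 genes called in all 4 H3K4me2 lists, 51 (71.8%) had an H3K4me3 call, against 50.8% of all such genes. The other 4 genes with H3K4me3 were Ndufc1, Ndufs5, Cox6c and Atp5g1, each missed in DE replicate 2. None of the 10 genes without an H3K4me2 call by gene ends had one by gene ends, against 0.0288% of all such genes. With a share that low, 0 of 10 says little about the members. Cox5a, among the 10, had calls of both marks at its start.

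Peaks sat close to the starts of the called genes with a promoter row, which numbered 67 and 65 in DE, 68 and 70 in WT and 46 for H3K4me3. The median summit of the strongest peak was 26 and 34 bp upstream in DE, 31 and 31 bp upstream in WT and 26 bp upstream for H3K4me3. Over all called genes it was 34 and 33 bp upstream in DE, 34 and 36 bp upstream in WT and 26 bp upstream for H3K4me3, so the median position was near that of other genes. Within 250 bp of the start lay 94% and 92.3% of these summits in DE and 89.7% and 90% in WT, against 70.7% and 71% in DE and 70.3% and 71.7% in WT over all called genes. For H3K4me3 the share was 93.5%, against 73%. Among the exceptions, Atp5d, the delta subunit of the F1 head, had its strongest gene-end peak away from its start. At the start itself its folds were 13 and 9.08 in DE and 20.3 and 14.1 in WT.

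**Figure D4:**
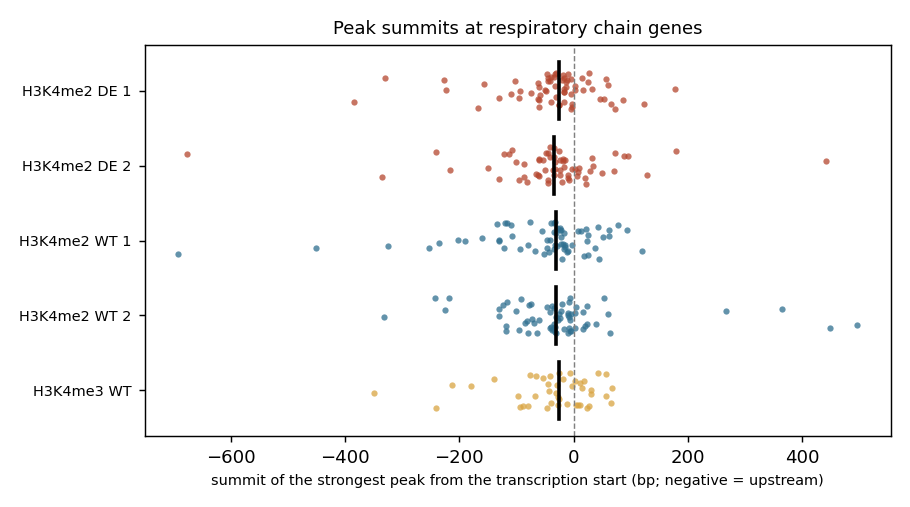
Distance of the strongest peak's summit from the transcription start for each respiratory chain gene, in bp, with 1 row per library and a black bar at the median; summits beyond 1 kb are not drawn. The medians lie 26 to 34 bp upstream in all 5 libraries.

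Many of these promoters were shared with a neighbour. Of the 86 genes called in at least 1 H3K4me2 list, 41 (47.7%) had every peak also within 1 kb of another gene's end, against 22.4% of 11475 genes called in any of the 5 lists. A neighbour's start in head-to-head orientation within 1 kb was found for 23 of 78 genes (29.5%), against 8.61% of 17492 genes. Among genes called in all 4 lists the shares were 22 of 60 (36.7%) and 18.7% of 6689. The partners included Timm8b, a mitochondrial import factor, 52 bp upstream of Sdhd. Others were Rps28, a ribosomal protein gene 10 bp upstream of Ndufa7, Mrpl47, a mitochondrial ribosomal protein gene 308 bp upstream of Ndufb5, and Gabpa, 148 bp upstream of Atp5j. A peak at such a start cannot be assigned to either gene.

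The promoter letters were counted beside those of all genes, with no test. An NRF1 match was found in 24.4% of the 78 respiratory chain promoters, against 7.17% of all 17492. Among genes called in all 4 lists the shares were 25% of 60 and 12.9% of 6689. For ETS the shares were 24.4% of the 78 and 12.9% of the 17492, and 30% and 22.1% among genes called in all 4 lists. For YY1 they were 15.4% of the 78 and 7.18% of the 17492, and 11.7% and 8.46% among genes called in all 4 lists. For SP1 (GGGCGG, not capitalised above) they were 44.9% of the 78 and 49.2% of the 17492, and 50% and 72.6% among genes called in all 4 lists. The median number of CpG dinucleotides was 20 and 15 over all promoters, and 21 and 24 among genes called in all 4 lists, so its order depended on the set. For TATA the shares were 10.3% of the 78 and 14.8% of the 17492, and 6.67% and 7.56% among genes called in all 4 lists. For CCAAT they were 43.6% of the 78 and 42.3% of the 17492, and 46.7% and 42.8% among genes called in all 4 lists. ETS letters were in 34.8% (16) of the 46 respiratory chain promoters with H3K4me3. They were in 11.8% (2) of the 17 called in all 4 lists without it, beside 26.5% and 17.5% of all genes of those kinds. In the same sets of respiratory chain promoters, NRF1 letters were in 23.9% and 29.4% and SP1 letters in 43.5% and 58.8%. YY1 letters were in 15.2% (7) and 5.88% (1), CCAAT letters in 50% and 35.3% and TATA letters in 6.52% (3) and 5.88% (1). Over all genes of those kinds the shares were 15.3% and 10.3% for NRF1 and 71.7% and 72.8% for SP1. They were 11.4% and 5.76% for YY1, 43.5% and 42.3% for CCAAT and 7.41% and 7.82% for TATA. These windows have the same length, the motifs can overlap, and a match is not a binding site.

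Genes that work with the chain but carry other symbols were counted in 4 further lists. Of all protein-coding genes, 44.8% and 40.2% were called in DE and 48.1% and 49.1% in WT. All 4 H3K4me2 lists called 37.6% of them, and the H3K4me3 list 20.8%. Of 5 genes of electron carriers and of complexes missed by the symbol rule, all were called in all 4 lists and 2 for H3K4me3. The 2 were Cycs and Cyc1, which encodes cytochrome c1 of complex III. Cycs, cytochrome c, had places of 1.9% and 2.63% in DE and 0.964% and 0.952% in WT. Of 35 further assembly factors, 29 and 28 were called in DE (82.9% and 80%) and 31 and 34 in WT (88.6% and 97.1%). For H3K4me3, 16 of the 35 were called (45.7%). Among the 35, Sdhaf4 and Tmem70 had calls in WT replicates 1 and 2 alone, a pattern of 3.07% of all genes. Their WT places were 49.1% and 97.6% for Sdhaf4 and 68.5% and 72.4% for Tmem70. Surf1, a complex IV assembly factor, had places of 0.683% and 1.76% in DE and 2.02% and 2.37% in WT. Of 13 citric acid cycle genes, 13 and 12 were called in DE (100% and 92.3%), with Dld missed in DE replicate 2. In WT, 13 and 13 were called (100% each). Of 13 regulators of mitochondrial gene expression, which include Nrf1, Gabpa and Tfam, 12 and 11 were called in DE (92.3% and 84.6%). In WT, 12 and 12 were called (92.3% each).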

How the data were processed

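The cMoP libraries were prepared by CUTAC with a commercial kit, per the labels' protocols. Peak lists of 5 of the 7 samples were used, each of 1 library, and the MDP and IgG libraries were not analysed here. MACS2 2.2.9.1, Bowtie2, Trimmomatic, Picard, SAMtools and the mm10 build are listed in the submitters' processing notes. For settings, duplicate handling, any control and read depth, nothing is given in the sources used here. A deposited entry carries a score (the −log10 q times 10, as a whole number). It also carries the authors' fold, a ratio of pileup over local background, the authors' −log10 p and −log10 q of the summit, and the deposited offset of the summit in bp. They were used to rank and filter peaks inside 1 list. The track line of DE replicate 1 names DE replicate 2, and the series record decided its sample.

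Entries that share an interval were counted as 1 peak, by their strongest p. Genes, ends and starts came from RefSeq tables of GRCm38.p6. Merged regions are the joined intervals of the 4 H3K4me2 lists that lie within 1 kb of a gene end. For genes with several starts a motif was counted in any window and the CpG count was that of the richest. A head-to-head neighbour starts upstream on the other strand, with an overlap under 100 bp allowed. Counts per library were compared between DE and WT by exact permutation, two-sided, of the 6 possible assignments, and all other shares were given without a test, beside the share over all genes. The text names genes called in 0 to 3 H3K4me2 lists, the 2 best WT places of each complex, tissue isoforms and their partners of most tissues, and the best H3K4me3 place of each complex. A gene that this rule names is not reported here, and is counted in the totals but not drawn. Other genes named (such as Ndufs1, Sdhb, Uqcrfs1, Atp5d, promoter neighbours and single genes of the further lists) were chosen after their values were seen. The members, lists and tests were chosen with earlier results of these data known. No label ties the replicate numbers of DE and WT, so they were not taken as pairs. Alternatives were windows of 500 bp and 2 kb, the start alone, the summit in the window, lists of equal length, a −log10 q of at least 5, leaving out genes that share every peak, leaving out each library and the replicate block. The code was tested on simulated data and made 0 wrong calls over 2000 genes. Python 3.11.15, NumPy 2.4.6, pandas 2.3.3 and matplotlib 3.10.9 were used.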

Additional observations from a re-analysis of the deposited data

How the results depend on the processing

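The difference of DE minus WT in genes called was 2.5, in place of -4.5, with lists of equal length (exact permutation p = 1), whose construction shortens the WT lists most, and the regions moved to -2.5. It kept its sign under the other alternatives, between -18 and -2.5 for genes, and regions lay between -27.5 and -2.5 under all. Leaving out 1 library gave -6.5 to -2.5 for genes, -22 to -9 for regions and 71 to 78 genes called in all remaining lists. The replicate block gave -4.5 and -13.5, with an exact p of 0.5 each, from differences within replicate numbers of -1 and -8 genes and of -3 and -24 regions. Deviations of same-numbered libraries had a correlation of -0.00951 over all genes and 0.279 over the respiratory chain genes, and 2 numbers cannot settle a pairing. The block changed no call, since the smallest p of this design is 0.333 and no call was made. The 71 genes called in all 4 lists became 44 at a −log10 q of at least 5 (23.5% of all genes) and 31 of 55 (56.4%) without the genes that share every peak, against 31.5% of the 19314 genes left under the same rule. The 55 with H3K4me3 became 23 of 55 (41.8%), against 15.7%. Genes called in both WT and neither DE list became 1 (Ndufa4l2) within 500 bp, beside 3.29% of all genes, and 6 at a −log10 q of at least 5 (Ndufa8, Ndufa4, Ndufa4l2, Ndufs7, Cox6b1 and Atp5j2, beside 5.35% of all genes). Leaving out 1 library gave 0 to 7 of these, with 7 (7.29%, beside 7.39% of all genes) without DE replicate 1, 2 (2.08%, beside 4.01%) without DE replicate 2 (Ndufa8 and Ndufa9) and 2 (2.08%, beside 4.65%) without WT replicate 1 (Ndufa3 and Atp5mpl). Genes called in DE and not in WT numbered 0 to 1, with Ndufs4 without DE replicate 1 (1.04%, beside 0.461% of all genes) and Cox7c without WT replicate 2 (1.04%, beside 0.845%). Some of these alternatives make shorter lists or leave fewer genes or libraries, and the cause of the changes was not tested.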

Other observations

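Of 19 pseudogenes and further loci that are not protein-coding and whose symbols match the rule, 0 and 0 were called in DE, 0 and 1 in WT and 0 for H3K4me3. The called one was Atp5c1-ps in WT replicate 2. The mitochondrial genome, which encodes a few subunits of the chain, held 0 and 0 entries in DE, 2 and 0 in WT and 0 for H3K4me3. Among regulators of the chain's genes, Gabpb1, which encodes the partner of Gabpa, had no call by its gene ends and was called in all 4 H3K4me2 lists at its start. The same held for Atpaf2, an assembly factor of the F1 head. Ppargc1a, a coactivator of respiratory genes, went the other way, with calls in all 4 lists by its gene ends and in none at its start.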
